A study of Mus musculus with 2 samples.

Results

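The genes described here are 5 that mark mast cells, Mcpt1, Mcpt2, Cpa3, Fcer1a and Ms4a2, out of 32285 genes counted in single cells of the mouse proximal small intestine. They were chosen with measured values in view: how many cell barcodes carried them, whether they were found together, how far their counts sat in a few barcodes, and the gap in Mcpt1 between the libraries. All of those quantities are therefore given as descriptions, and no test was run on them. There were 2 libraries, both from control C57BL/6 mice: control 2, titled an M3 control, and control 1, titled an M1 control, in a series on mice with reduced expression of 1 of these muscarinic receptor subtypes. The labels name no transgene, agent, age or sort for either library and do not say how many animals supplied each. Villus cells were released in 20 mM EDTA over 60 min and crypt cells in TrypLE, a trypsin-like enzyme, over 10 min, and the pooled cells passed a 30 µm mesh before 3′ single-cell library preparation. Each molecule is counted once by its unique molecular identifier (UMI). With 1 library for each titled control, a difference between them has no replicate check.

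Mast cells are tissue-resident, granule-filled blood-lineage cells that carry IgE on their surface and release stored granules when antigen links that IgE. Those of the gut epithelium and mucosa store chymases such as Mcpt1 and Mcpt2, and are known for their expansion during worm infection, when Mcpt1 passes into the gut lumen and the blood. Mcpt1 and Mcpt2 encode chymase-family serine proteases of mucosal mast cells. Cpa3 encodes carboxypeptidase A3, a granule protease of mast cells that basophils and early blood progenitors also express. Fcer1a encodes the alpha chain of the high-affinity IgE receptor, which binds IgE, and Ms4a2 encodes its beta chain, which amplifies the signal, and both chains are also made by basophils.

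In the GENCODE M21 annotation of GRCm38, Mcpt1 lies at chr14:56017971-56020384 and Mcpt2 at chr14:56042041-56044642, both on the plus strand. Cpa3 lies at chr3:20215620-20242181, Fcer1a at chr1:173221284-173227214 and Ms4a2 at chr19:11615523-11623719, all on the minus strand. Of the 50-base stretches in the last 500 bases of each member's transcripts, 0 were shared with another gene, so the near relatives Mcpt1 and Mcpt2 can be told apart there. The 250 bases upstream of the start are shown for 4 of the 5 members because these genes were found together in the same barcodes. They are RefSeq sequences of GRCm38.p6, written in the direction of transcription, at chr14:56017714-56017963 (plus strand) for Mcpt1, chr3:20242182-20242431 (minus strand) for Cpa3, chr1:173227230-173227479 (minus strand) for Fcer1a and chr19:11623720-11623969 (minus strand) for Ms4a2. Capitals mark the letters GATAA, a short form of the motif that GATA factors bind, and its reverse complement TTATC.
Mcpt1: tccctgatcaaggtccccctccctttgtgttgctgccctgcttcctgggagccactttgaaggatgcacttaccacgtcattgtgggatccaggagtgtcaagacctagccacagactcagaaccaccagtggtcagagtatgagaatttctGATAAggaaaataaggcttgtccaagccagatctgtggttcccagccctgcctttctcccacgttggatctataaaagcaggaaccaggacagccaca
Cpa3: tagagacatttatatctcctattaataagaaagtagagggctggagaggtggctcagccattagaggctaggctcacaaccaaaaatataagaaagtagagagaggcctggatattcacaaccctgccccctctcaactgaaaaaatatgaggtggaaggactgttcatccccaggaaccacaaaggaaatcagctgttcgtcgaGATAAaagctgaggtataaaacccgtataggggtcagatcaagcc
Fcer1a: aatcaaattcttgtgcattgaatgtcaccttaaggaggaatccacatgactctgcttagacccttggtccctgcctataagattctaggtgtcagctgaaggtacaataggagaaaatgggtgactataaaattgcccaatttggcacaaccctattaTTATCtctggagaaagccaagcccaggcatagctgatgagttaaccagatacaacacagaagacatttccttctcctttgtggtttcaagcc
Ms4a2: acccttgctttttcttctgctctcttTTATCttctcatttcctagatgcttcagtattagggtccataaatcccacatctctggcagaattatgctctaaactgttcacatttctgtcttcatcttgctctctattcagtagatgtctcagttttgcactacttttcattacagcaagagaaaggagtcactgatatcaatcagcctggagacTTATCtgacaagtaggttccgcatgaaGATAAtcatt
All 4 windows held the motif on 1 strand or the other, with 3 occurrences in Ms4a2 and 1 in each of Mcpt1, Cpa3 and Fcer1a, and 22.6% of all 32851 windows of the same length in the table (7418) held it too. No 2 of the marked stretches overlapped. A match of letters is a description and does not show that a factor binds there.

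Over all deposited barcodes, control 2 held 36139325 UMIs in 7109 barcodes (median 2489 UMIs per barcode) and control 1 held 54451793 UMIs in 9342 barcodes (median 3135). Barcodes with at least 500 genes and under 25% mitochondrial UMIs, called kept barcodes below, numbered 4742 in control 2 and 7120 in control 1, and hemoglobin made up over 50% of UMIs in 683 and 522 barcodes of control 2 and control 1. The libraries shared 17 barcode sequences.

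The members were rare. At least 1 UMI of any member was found in 76 of 7109 barcodes in control 2 (1.07%) and in 138 of 9342 in control 1 (1.48%). Nearly all of these carried 1 member alone, 73 barcodes in control 2 and 133 in control 1. A further 1 barcode in control 2 and 3 in control 1 carried 2 members, 0 barcodes in either library carried 3 or 4, and 2 barcodes in each library carried all 5. The count of members per barcode thus left a gap between 2 and 5. Barcodes with at least 3 of the 5 members are called mast-gene barcodes below, and they made up 0.0281% of barcodes in control 2 (exact binomial 95% interval 0.00341% to 0.102%) and 0.0214% in control 1 (0.00259% to 0.0773%). All intervals cover counting error only. Of the 17 barcode sequences found in both libraries, 0 were mast-gene barcodes. Each of the 4 passed the gene and mitochondrial limits above.

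Although they held 26023 UMIs, 0.0287% of all UMIs in the series, the 4 mast-gene barcodes held most of the member UMIs. In control 2 they held 2060 of 2144 member UMIs (96.1%), and in control 1 140 of 304 (46.1%). Pooled over both libraries, the share was 94.1% for Mcpt1 (92.8% to 95.2%), 91.0% for Mcpt2 (88.4% to 93.3%), 87.0% for Ms4a2 (66.4% to 97.2%), 63.6% for Fcer1a (40.7% to 82.8%) and 48.5% for Cpa3 (40.8% to 56.3%). These pooled shares are mostly those of control 2, which held most of the member UMIs. In control 2 alone the share was 97.7% for Mcpt1, 96.9% for Mcpt2, 93.3% for Ms4a2, 91.7% for Fcer1a and 66.0% for Cpa3, and in control 1 alone it was 54.6%, 48.5%, 75.0%, 30.0% and 27.3% in the same order. Mcpt1 exceeded Cpa3 in both libraries (96.8% to 98.4% against 55.5% to 75.4% in control 2, and 46.0% to 63.0% against 17.7% to 38.6% in control 1), while the interval of Cpa3 overlapped that of Ms4a2 in each library and, in control 1, that of Mcpt2 as well. Since a mast-gene barcode was chosen by these genes, these shares describe the choice and support nothing by themselves.

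**Figure D1:**
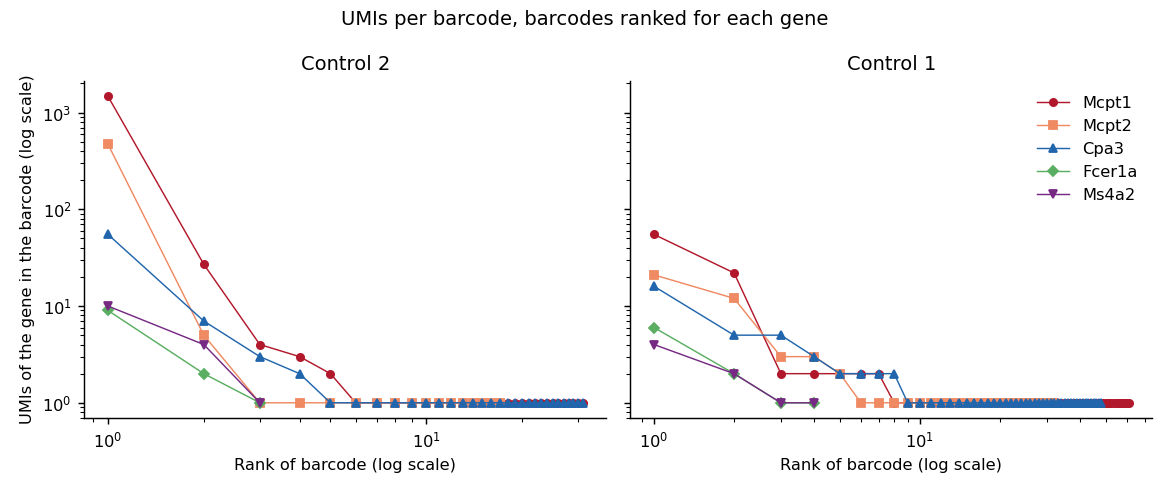
UMIs of each member in each barcode that carried it (log scale) against the rank of that barcode for that gene (log scale), with control 2 on the left and control 1 on the right. In control 2, Mcpt1 drops from 1471 UMIs in its first barcode to 27 in its second and 4 in the next; in control 1 the first barcode held 55, the second 22 and the next 2.

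Mcpt1 lay mostly in a single barcode in control 2 but not in control 1. In control 2 it had 1533 UMIs, 1471 of them in 1 barcode (96.0%), and 31 barcodes carried it at all. In control 1 it had 141 UMIs in 61 barcodes, and the highest barcode held 55 of them (39.0%). More barcodes of control 1 than of control 2 therefore carried Mcpt1, while its summed count was the higher in control 2. Mcpt2 followed the same course. Its 490 UMIs in control 2 lay in 17 barcodes, with 470 in the same barcode that led for Mcpt1 (95.9%), and its 68 UMIs in control 1 lay in 32 barcodes, with 21 in the highest (30.9%). Among genes with at least 20 UMIs in the library, a single barcode held 50% or more of the UMIs of 0.691% of genes in control 2 (100 of 14468) and 0.371% in control 1 (57 of 15372). By that share Mcpt1 ranked 12 and Mcpt2 13 in control 2, and 106 and 180 in control 1, so that the concentration was that of a small fraction of all genes in control 2 and did not reach 50% in control 1.

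Cpa3 was less concentrated. It had 94 UMIs in 31 barcodes of control 2, with 55 in the highest (58.5%), and 77 UMIs in 48 barcodes of control 1, with 16 in the highest (20.8%). In control 2 Cpa3 ranked 60 of 14468 genes by this share, and in control 1 it ranked 375 of 15372. The IgE receptor chains were carried by the fewest barcodes. Fcer1a had 12 UMIs in 3 barcodes of control 2 and 10 UMIs in 4 barcodes of control 1, with 9 and 6 UMIs in the highest barcode of each. Ms4a2 had 15 UMIs in 3 barcodes of control 2 and 8 UMIs in 4 barcodes of control 1, with 10 and 4 in the highest. For each member in each library the highest barcode was a mast-gene barcode, except for Fcer1a in control 1.

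Co-detection was limited to a handful of barcodes. The 2 chymases, the most often carried members beside Cpa3, shared 2 barcodes in control 2, where 29 others carried Mcpt1 without Mcpt2 and 15 carried Mcpt2 without Mcpt1. In control 1 they also shared 2, where 59 carried Mcpt1 without Mcpt2 and 30 the reverse. All of these shared barcodes were mast-gene barcodes. Fcer1a and Ms4a2, whose products sit in 1 receptor complex, shared 2 barcodes in each library, again the mast-gene barcodes, and beyond these 1 barcode of control 2 and 2 of control 1 carried Fcer1a without Ms4a2, and the same numbers carried Ms4a2 without Fcer1a.

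The 2 mast-gene barcodes of control 2 differed from each other in their member counts. The first held 1471 UMIs of Mcpt1, 470 of Mcpt2, 55 of Cpa3, 9 of Fcer1a and 10 of Ms4a2 among 11076 UMIs, so that the members made up 18.2% of its RNA counts. The second held 27, 5, 7, 2 and 4 UMIs of the same genes in the same order among 8333 UMIs, 0.540% of its counts. Their depths were thus alike and their member content was not. In control 1 the first mast-gene barcode held 55 UMIs of Mcpt1, 21 of Mcpt2, 5 of Cpa3, 2 of Fcer1a and 2 of Ms4a2 among 1522 UMIs (5.58%), and the second held 22, 12, 16, 1 and 4 among 5092 UMIs (1.08%). Mcpt1 alone took 13.3% and 0.324% of the UMIs in the first and second barcode of control 2, and 3.61% and 0.432% in those of control 1. Cpa3 took 0.497% and 0.0840% in control 2, and 0.329% and 0.314% in control 1. Cpa3 therefore lay within a narrower range over the 4 barcodes than Mcpt1, and the first barcode of control 2 exceeded the others mainly in the chymases.

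Summed over the mast-gene barcodes of each library, Cpa3 stood at 3194 CPM (UMIs of the gene per 1000000 UMIs in the barcodes summed) in control 2 (exact Poisson 95% interval 2449 to 4095) and at 3175 in control 1 (1965 to 4853). Mcpt1 stood at 77181 CPM in control 2 (73321 to 81191) and 11642 in control 1 (9188 to 14551), and Mcpt2 at 24473 (22322 to 26776) and 4989 (3434 to 7007). The chymase levels were thus the higher in control 2, as the genes were chosen to show, while those of Cpa3 were near each other. Fcer1a stood at 567 CPM in control 2 (283 to 1014) and 454 in control 1 (93.5 to 1326), and Ms4a2 at 721 (394 to 1210) and 907 (333 to 1975). These sums rest on 2 barcodes in each library, and in control 2 the first holds 1471 of the 1498 Mcpt1 UMIs, so they give no comparison between the libraries; the intervals cover the counting of UMIs and not the spread between cells.

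The RNA makeup of the 4 barcodes also varied. Mitochondrial UMIs made up 3.64% and 8.35% in the first and second barcode of control 2, and 11.9% and 7.40% in those of control 1. Ribosomal protein genes made up 28.9% and 9.98% in control 2, and 3.02% and 0.668% in control 1, beside medians over kept barcodes of 4.19% and 8.38% in control 2 and control 1. Malat1, a nuclear noncoding RNA, made up 0.605% and 3.17% in control 2, and 7.03% and 2.32% in control 1, beside medians of 0.200% and 0.0977%. The barcode with the most chymase UMIs was thus the one with the highest ribosomal and lowest Malat1 share of the 4. The part of RNA quality in the chymase differences was not tested.

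The label was checked against 12 mast cell markers, the 5 members among them. The first and second mast-gene barcodes of control 2 carried 8 and 5 of the 12, and those of control 1 carried 7 each. The 5 members, used to choose the barcodes, were in all of these counts and say nothing for the label. Beyond them, the first barcode of control 2 carried Kit, Gata2 and Mcpt4, the second none, and both of control 1 Kit and Gata2. Kit, the receptor for stem cell factor on which mast cells depend, had 10 and 0 UMIs in control 2 and 1 and 3 in control 1. Gata2, a transcription factor of the mast cell lineage, had 2 and 0 in control 2 and 2 and 1 in control 1. Both were therefore found in 3 of the 4 barcodes, as markers that the choice did not use. Kit was not particular to them, with 919 UMIs in control 2 and 1366 in control 1 as a whole. In the clustering described below, Kit was also among the 10 leading genes of the cluster that held both barcodes of control 1. The Kit UMIs there do not set these barcodes apart from the others of that cluster. The connective tissue mast cell genes Cma1 and Tpsb2, a chymase and a tryptase, had 0 UMIs in all 4, as had Hdc, the enzyme that makes histamine, and the tryptase gene Tpsab1 had 0 UMIs in either library. A count of 0 over the mast-gene barcodes allows up to 155 CPM in control 2 and 454 in control 1, taking 3 counts as the limit. Of 6 basophil markers, 3 of which are members, the first barcode of control 2 also carried Mcpt8, at 1 UMI, and Prss34 had 0 UMIs anywhere.

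The second mast-gene barcode of control 2, the one without Kit or Gata2, also carried T cell genes. It held 9 of the 10 T or NK cell markers, with 199 UMIs, among them 9 of Cd3e, 10 of Cd3g, 4 of Trac and 144 of the granzyme gene Gzma, and it held 168 UMIs of Ccl5, a T cell chemokine gene. The first barcode of control 2 and the first of control 1 held 0 of these 10 markers, and the second of control 1 held 1 (Cd7, 1 UMI). Whether the second barcode of control 2 holds more than 1 cell was not tested, and no doublet caller was run. Epcam, an epithelial surface gene, and Lyz2, a myeloid lysozyme gene, had 0 UMIs in all 4. Other markers of these lineages were present. Of 7 goblet markers, the barcodes of control 2 held 5 (11 UMIs) and 2 (4 UMIs). Those of control 1 held 1 (2 UMIs) and 2 (8 UMIs). Of 9 enterocyte markers, they held 3 and 3 in control 2 and 2 and 2 in control 1. Of 8 myeloid markers each held 1, Itgax. Whether these UMIs are background was not tested. Kept barcodes were clustered without the members and without the mast cell gene lists. The first barcode of control 2 fell into a T or NK cell-like cluster led by Ifitm1, Ccl5, Fcer1g and Mcpt9, with 0 T or NK cell markers of its own. The leading genes were ranked with this barcode included, and it held 57 of the 62 Mcpt9 UMIs of the series. Mcpt9 is therefore not a trait of the cluster's other barcodes. The other 3 fell together into an unnamed cluster led by Xcl1, Tcf7, Aff3 and Klrk1. The mast-gene barcodes did not form a cluster of their own. The clustering could hardly have given one, as it left out the mast cell genes and joined each barcode to 15 neighbours. Nothing is read from this outcome.

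**Figure D2:**
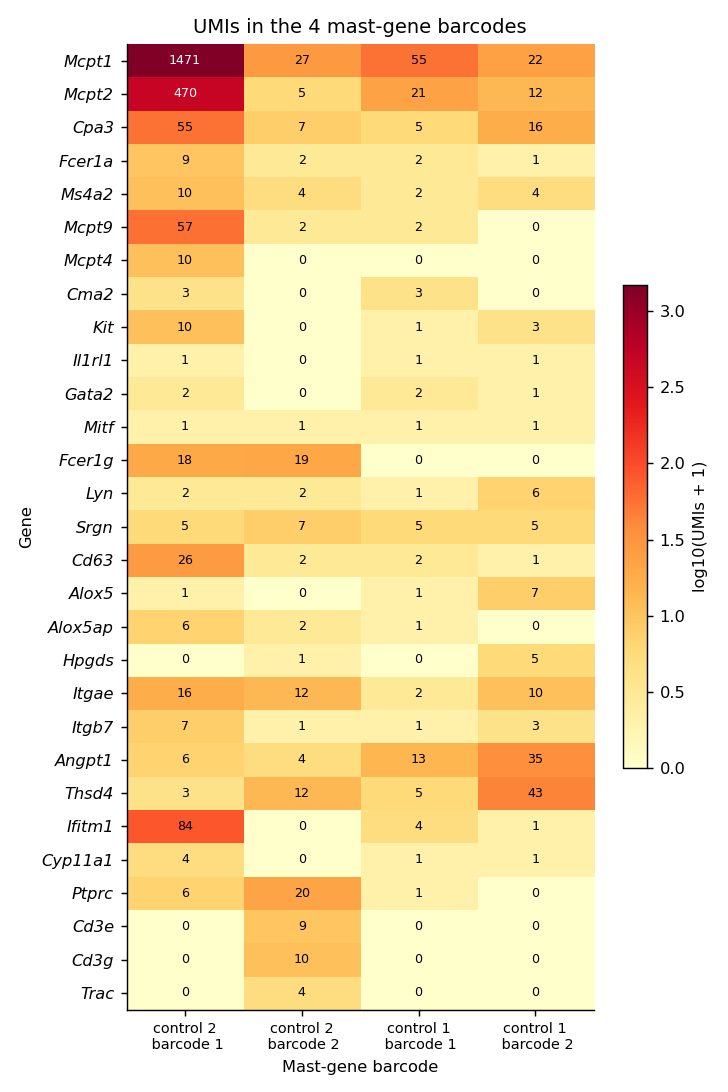
UMIs of the 5 members and of other named genes (rows) in the 4 mast-gene barcodes (columns, control 2 on the left); colour is log10(UMIs + 1) and each cell prints the count. The 3 T cell receptor complex genes at the bottom have UMIs in the second barcode of control 2 only, and Mcpt9 is highest, at 57 UMIs, in the first.

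Beyond the members, the UMIs of other granule proteases within the mast-gene barcodes lay mainly in the first barcode of control 2. Of 11 measured genes of this list, 6 had a UMI in a mast-gene barcode, and the list's median share of UMIs in these barcodes was 10%, beside 5748 of 32285 genes and a median of 0% over all genes. The same background holds for each list below: 5748 of the 23196 genes with any UMI had a UMI in these barcodes, which held 0.0287% of all UMIs. Genes with many UMIs are more readily found there, so nothing is read from the list counts. Mcpt9, a chymase gene that lies between Mcpt1 and Mcpt2 on chr14 (56026864-56030495, minus strand), had 57 and 2 UMIs in control 2 and 2 and 0 in control 1. Mcpt4, a chymase of connective tissue mast cells, had 10 and 0 in control 2 and 0 and 0 in control 1. Cma2 had 3 and 0 in control 2 and 3 and 0 in control 1, and Ctsg, which encodes cathepsin G, had 2 in the first barcode of control 2 alone. Granzyme B (Gzmb), widespread in gut lymphocytes, had 11 UMIs in the second barcode of control 2 and 0 in the other 3. Mcpt4 and Cma2 each had 66.7% of all their UMIs in the mast-gene barcodes, and Gzmb 0.0137%. Mcpt4, Cma2 and Ctsg rest on 15, 9 and 3 UMIs in the whole series. Other genes of the list were absent from the mast-gene barcodes. Tpsg1 had 1144 UMIs in control 2 and 607 in control 1, and 0 of these 1751 lay in the mast-gene barcodes. Cma1 and Tpsb2 also had 0 there, on 13 and 14 UMIs in the whole series.

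Of the 19 genes for granule matrix and amine storage, 14 had a UMI in a mast-gene barcode. Their median share was 0.0438%, near the 0.0287% of all UMIs that these barcodes held. Srgn, the proteoglycan core of mast cell granules, had 5 and 7 UMIs in control 2 and 5 and 5 in control 1, and Cd63, a granule membrane protein, had 26 and 2 in control 2 and 2 and 1 in control 1. Both were found in all 4 barcodes, which held 0.0864% of all Srgn UMIs and 0.295% of all Cd63 UMIs. Tph1, which makes serotonin's precursor, had 6 and 0 in control 2 and 0 and 3 in control 1. Of the 9 genes for lipid mediator synthesis, 5 had a UMI, with a median share of 0.0296%, near the 0.0287% of all UMIs. Alox5, the 5-lipoxygenase that starts leukotriene synthesis, had 1 and 0 in control 2 and 1 and 7 in control 1. That was 5.42% of its UMIs. Alox5ap had 6 and 2 in control 2 and 1 and 0 in control 1, 0.639% of its UMIs. Ltc4s, Ptgs1, Ptgs2 and Ptges had 0 UMIs in all 4 barcodes, with 1513, 493, 27 and 25 in the series. Hpgds, the prostaglandin D synthase of mast cells, had 0 and 1 in control 2 and 0 and 5 in control 1.

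Downstream of the IgE receptor, 17 of 19 signalling genes had a UMI in a mast-gene barcode, beside 5748 of the 23196 genes with any UMI. Their median share was 0.0954%, beside 0.0287% of all UMIs. Fcer1g, the gamma chain that completes the receptor with Fcer1a and Ms4a2, had 18 and 19 UMIs in control 2 and 0 and 0 in control 1. Lyn, the kinase that starts receptor signalling, had 2 and 2 in control 2 and 1 and 6 in control 1. Prkcb, a protein kinase C, had 9 and 6 in control 2 and 0 and 18 in control 1. Inpp5d, the phosphatase that limits the signal, had 5 and 4 in control 2 and 2 and 6 in control 1. Lyn and Inpp5d were thus found in all 4 barcodes, which held 0.148% and 0.181% of their UMIs.

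Of 20 growth factor and surface receptor genes, 10 had a UMI in a mast-gene barcode, with a median share of 0.153%. Il1rl1, the IL-33 receptor, had 1 and 0 UMIs in control 2 and 1 and 1 in control 1, which was 25% of its 12 UMIs in the series. Csf2rb, the shared beta chain of the IL-3 and GM-CSF receptors, had 3 and 0 in control 2 and 1 and 1 in control 1, and P2rx7, an ATP receptor, had 8 and 8 in control 2 and 2 and 12 in control 1. Mrgprb2, a mast cell receptor for cationic peptides, and Mrgprb1 had 0 UMIs in either library. Of 18 lineage transcription factors, 15 had a UMI, with a median share of 0.117%. Gata2 had 55.6% of its 9 UMIs there, and Mitf, a factor that mast cell development needs, had 1 UMI in each of the 4 barcodes. Runx1 had 3 and 2 in control 2 and 4 and 19 in control 1, and Zeb2 6 and 1 in control 2 and 2 and 16 in control 1.

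Of 13 genes for gut homing and the TGF-beta response, 7 had a UMI, with a median share of 0.0131%, below the 0.0287% of all UMIs in these barcodes. Itgae and Itgb7, which pair as the integrin that holds intraepithelial cells to E-cadherin, were found in all 4 barcodes. Itgae had 16 and 12 UMIs in control 2 and 2 and 10 in control 1, and Itgb7 7 and 1 in control 2 and 1 and 3 in control 1. Of 15 cytokine genes, 4 had a UMI and the median share was 0%. Il4 had 3 and 0 in control 2 and 0 and 2 in control 1, 11.6% of its UMIs. Of 9 ligands that act on mast cells, 0 had a UMI in a mast-gene barcode, while Kitl, which encodes stem cell factor, had 960 and 1263 UMIs in control 2 and control 1, and Il33 had 319 and 525. Of 9 basophil and eosinophil genes, 2 had a UMI, Mcpt8 and Siglecf at 1 each.

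The genes most like the members were ranked by the share of their UMIs that lay in the mast-gene barcodes, pooled over both libraries. There were 798 genes with at least 20 UMIs in all and UMIs in at least 3 of the 4 barcodes, the members and the mitochondrial and ribosomal protein genes aside. Mcpt9 led at 98.4% of 62 UMIs. Angpt1, which encodes angiopoietin 1, a ligand of endothelial cells, followed at 69.0% of 84 UMIs, with 6 and 4 in control 2 and 13 and 35 in control 1. Thsd4, a secreted matrix protein gene, came next at 52.5% of 120 UMIs, with 3 and 12 in control 2 and 5 and 43 in control 1. The first barcode of control 2, highest for Mcpt1, held few UMIs of Angpt1 and Thsd4, and the second of control 1, which held the fewest Mcpt1 UMIs of the 4, held the most. That second barcode of control 1 also had the lowest ribosomal share, and whether reads in introns were counted is not given in the sources used here.

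Adamtsl1, another secreted matrix gene, had 42.3% of its UMIs in the mast-gene barcodes. Ifitm1, an interferon-induced membrane protein gene, had 41.6%, with 84 UMIs in the first barcode of control 2 and 0, 4 and 1 in the second of control 2 and the first and second of control 1. Slc24a3, a sodium and calcium exchanger gene, had 38.6%, and Cyp11a1, the enzyme that starts steroid synthesis from cholesterol, 25%. The remaining genes of the first 15 were Gm15261 (30.3%), Olfr1033 (20%), Prkg1 (15.9%), Rgs18 (15.3%), Gna14 (13.3%), Itga2b (10.9%), Gm47754 (10%) and Mctp1 (9.28%). Angpt1 was the only gene of this ranking whose share lay between those of Ms4a2, at 87.0%, and Fcer1a, at 63.6%.

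**Figure D3:**
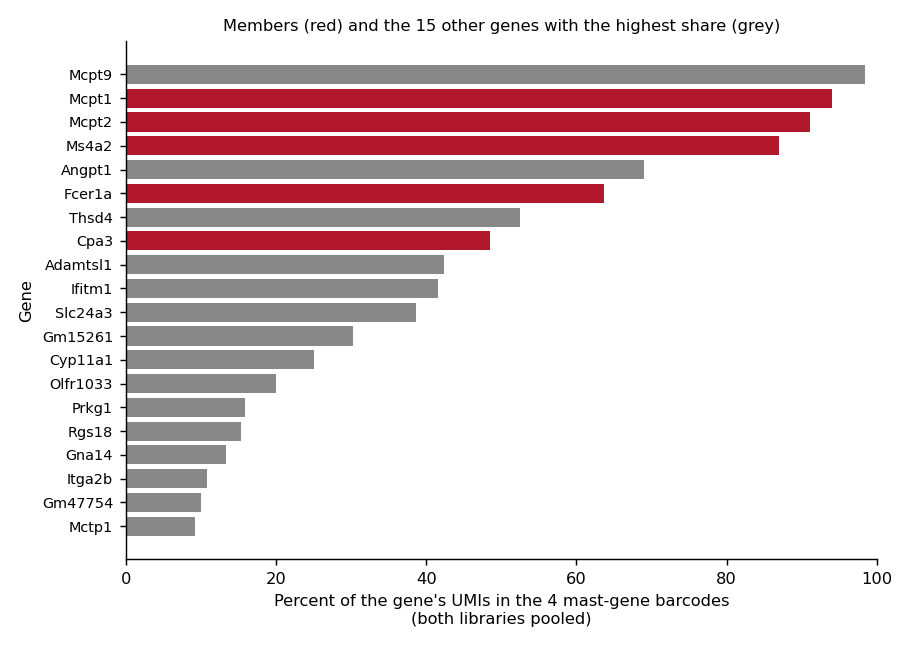
Percent of each gene's UMIs, both libraries pooled, that lay in the 4 mast-gene barcodes, for the 5 members (red) and the 15 other genes with the highest share (grey). Mcpt9 at 98.4% stands above every member, and Cpa3 at 48.5% stands between Thsd4 at 52.5% and Adamtsl1 at 42.3%.

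The summed gap between the libraries lay in a single barcode of control 2. Mcpt1 stood at 42.4 CPM in control 2 (exact Poisson 95% interval 40.3 to 44.6) and at 2.59 in control 1 (2.18 to 3.05), a ratio of control 2 over control 1 of 16.4 (exact binomial 95% interval 13.8 to 19.6). Without the single highest barcode of the gene in each library, Mcpt1 stood at 1.72 CPM in control 2 and 1.58 in control 1, a ratio of 1.09 (0.771 to 1.52). The gap in Mcpt1 thus fell to within counting error when 1 barcode of each library was set aside. Mcpt2 stood at 13.6 CPM in control 2 (12.4 to 14.8) and 1.25 in control 1 (0.970 to 1.58), a ratio of 10.9 (8.41 to 14.2), and at 0.554 and 0.863 CPM in control 2 and control 1 without the highest barcode, a ratio of 0.641 (0.360 to 1.10).

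The other members differed less. Cpa3 stood at 2.60 CPM in control 2 (2.10 to 3.18) and 1.41 in control 1 (1.12 to 1.77), a ratio of 1.84 (1.35 to 2.52) that became 0.964 (0.628 to 1.46) without the highest barcode. Fcer1a stood at 0.332 in control 2 (0.172 to 0.580) and 0.184 in control 1 (0.0881 to 0.338), a ratio of 1.81 (0.716 to 4.67). Ms4a2 stood at 0.415 in control 2 (0.232 to 0.685) and 0.147 in control 1 (0.0634 to 0.289), a ratio of 2.83 (1.12 to 7.69) that became 1.88 (0.405 to 9.49) without the highest barcode. No interval of the 5 members excluded a ratio of 1 once that barcode was set aside.

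A total that differed at least 4-fold between the libraries was uncommon, and 2 of the 5 members, Mcpt1 and Mcpt2, were at least 4-fold higher in control 2. Of the 16369 genes with at least 20 UMIs, 162 (0.99%) were at least 4-fold higher in control 2 and 204 (1.25%) at least 4-fold lower. The members were chosen for this gap, so nothing is read from their count against that background. Mcpt1 ranked 44 and Mcpt2 55 among the 16369 ratios, while Ms4a2 ranked 323, Cpa3 805 and Fcer1a 829, and Mcpt9 ranked 25. With each gene's highest barcode set aside, 0.965% of genes were at least 4-fold higher in control 2 and 1.74% at least 4-fold lower, and 0 of the 5 members passed in either direction.

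**Figure D4:**
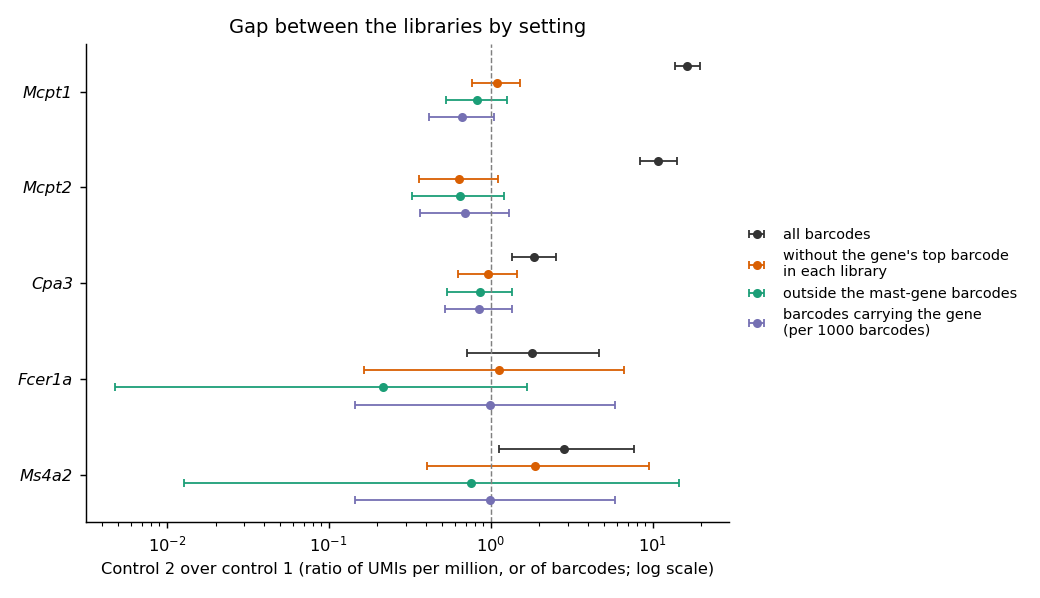
Ratio of control 2 over control 1 for each member (log scale) over all barcodes, without the gene's highest barcode in each library, outside the mast-gene barcodes, and as the ratio of barcodes carrying the gene per 1000; bars are exact binomial 95% intervals, and the dashed line marks a ratio of 1. The black points of Mcpt1 (16.4) and Mcpt2 (10.9) lie far to the right of every other point.

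Counted as barcodes, the 3 granule protease members were carried by fewer barcodes per 1000 in control 2 than in control 1, within counting error. Mcpt1 was carried by 4.36 of 1000 barcodes in control 2 and 6.53 of 1000 in control 1, a ratio of 0.668 (0.419 to 1.05). Mcpt2 was carried by 2.39 and 3.43 of 1000 in control 2 and control 1, a ratio of 0.698 (0.364 to 1.30), and Cpa3 by 4.36 and 5.14, a ratio of 0.849 (0.522 to 1.36). The intervals of all 3 ratios held 1. Control 1 had the deeper barcodes, so shares were also taken at 2000 UMIs per barcode, over the 4077 barcodes of control 2 and 6027 of control 1 with at least that many; the 3032 and 3315 shallower ones were left out. Any member was then found in 0.687% of barcodes in control 2 and 0.763% in control 1. Mcpt1 and Cpa3 were each found in 0.319% in control 2 and 0.282% in control 1, and Mcpt2 in 0.0736% and 0.199%. The lower share in control 2 was therefore not kept for Mcpt1 and Cpa3 at equal depth, and no order between the libraries is read from these shares.

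Outside the mast-gene barcodes the members were at a low level in both libraries, mostly 1 UMI at a time. Mcpt1 had 35 UMIs in 29 barcodes of control 2 and 64 in 59 barcodes of control 1, at most 4 in any barcode of control 2 and 2 in any of control 1, which is 0.969 CPM (0.675 to 1.35) and 1.18 (0.905 to 1.50). Mcpt2 had 15 UMIs in control 2 and 35 in control 1, and Cpa3 32 and 56. Fcer1a had 1 UMI in control 2 and 7 in control 1, 6 of these in 1 barcode, a ratio of 0.215 (0.00478 to 1.68), and Ms4a2 had 1 and 2. Inside the mast-gene barcodes there were 4.14 Cpa3 UMIs per 100 Mcpt1 UMIs in control 2 and 27.3 in control 1, and outside them 91.4 and 87.5. As a share of the summed UMIs of these 2 genes, Cpa3 made up 3.97% inside (3.06% to 5.07%) and 47.8% outside (35.4% to 60.3%) in control 2, and 21.4% inside (13.8% to 30.9%) and 46.7% outside (37.5% to 56.0%) in control 1. The 4 mast-gene barcodes differed in this share. It was 3.60% (2.73% to 4.67%) and 20.6% (8.70% to 37.9%) in the first and second barcode of control 2, and 8.33% (2.76% to 18.4%) and 42.1% (26.3% to 59.2%) in those of control 1. The interval of the second barcode in each library overlaps the interval outside, and that of the first does not. In control 2 the summed share rests on the first barcode. In control 1 it mixes both, as the first held 55 of the 77 Mcpt1 UMIs and the second 16 of the 21 Cpa3 UMIs.

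By class of barcode, Cpa3 outside the mast-gene barcodes lay chiefly in T or NK cell-like barcodes. Classes were named from fixed markers after a clustering that used neither the members nor the mast cell lists. These held 17 of the 32 Cpa3 UMIs in control 2 and 38 of the 56 in control 1, which is 3.75 CPM (2.19 to 6.01) and 3.98 (2.82 to 5.46). Enterocyte-like barcodes held 0 Cpa3 UMIs in control 2, which allows up to 0.342 CPM, and 2 in control 1, or 0.109 CPM (0.0132 to 0.393). Barcodes that were not kept and had over 50% hemoglobin, taken as cells that should lack the gene, held 0 in both libraries, which allows up to 0.679 CPM in control 2 and 0.930 in control 1. The Cpa3 level in T or NK cell-like barcodes thus lay above the intervals of the enterocyte-like and hemoglobin-dominated barcodes in both libraries, but it was not the only class or cluster with such a level. The kept erythroid-like barcodes held 0 Cpa3 UMIs in control 2, which allows up to 10.2 CPM, and 2 in control 1, or 4.61 CPM (0.559 to 16.7). An unnamed cluster led by Frmd5, Gm44174 and Clnk stood at 3.25 CPM in control 2 (0.885 to 8.32) and 5.81 in control 1 (2.13 to 12.6), and the unnamed cluster that held 3 of the mast-gene barcodes stood, without them, at 4.72 (1.73 to 10.3) and 0.519 (0.0131 to 2.89). Both scored highest for the T or NK cell markers (1.12 and 1.53), without such a marker among their 30 leading genes. So did an unnamed cluster led by Cd6, Ms4a4b and Cd8b1 (1.53). Its Cpa3 stood at 0.865 CPM in control 2 (0.0219 to 4.82) and 0.814 in control 1 (0.0206 to 4.54), 1 UMI in each. The level of the named class thus depends on which clusters the naming rule took in. At Leiden resolution 0.5 a cluster led by Hbb-bs, Hbb-bt and Frmd5 was named erythroid-like. That class then held Cpa3 at 2.62 CPM in control 2 (0.713 to 6.70) and 5.64 in control 1 (2.43 to 11.1).

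The share of barcodes with a Cpa3 UMI was also higher there. It was 2.35% of 680 T or NK cell-like barcodes in control 2 (median 6751.5 UMIs) and 2.16% of 1571 in control 1 (median 5953 UMIs). Among enterocyte-like barcodes it was 0% of 1906 in control 2 (median 2212 UMIs) and 0.0706% of 2831 in control 1 (median 2294 UMIs). At 2000 UMIs per barcode, with shallower barcodes left out, 5 of 637 T or NK cell-like barcodes carried Cpa3 in control 2 (0.785%) and 12 of 1475 in control 1 (0.814%), against 0 of 1062 enterocyte-like barcodes in control 2 and 1 of 1630 in control 1 (0.0613%). These thinned counts are small. Within the class, the cluster led by Gzmk and Trdc stood at 5.64 CPM in control 2 (2.70 to 10.4) and 2.42 in control 1 (0.660 to 6.20), and the cluster led by Klre1 and Cd200r2 stood at 2.79 (1.12 to 5.76) and 4.58 (3.11 to 6.50). These intervals overlap, so neither cluster can be placed above the other.

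Mcpt1 showed no such order in CPM summed over each class. In T or NK cell-like barcodes it stood at 1.32 CPM in control 2 (0.486 to 2.88) and 1.05 in control 1 (0.502 to 1.93), in enterocyte-like barcodes at 0.911 (0.393 to 1.79) and 1.36 (0.880 to 2.01), and in hemoglobin-dominated barcodes at 0.453 (0.0548 to 1.64) and 0.930 (0.192 to 2.72). All of these intervals overlap, so neither class can be placed above the hemoglobin-dominated barcodes, which held only 2 Mcpt1 UMIs in control 2 and 3 in control 1. The enterocyte-like sum mixed unlike clusters. In control 1 the one led by Mgam and Reg1 held 10692973 of the class's 18391899 UMIs, with Mcpt1 at 0.187 CPM (0.0227 to 0.676). The class's other clusters stood between 2.26 and 4.99 there. The one led by Apoa1 and Dnase1 stood at 4.19 (1.81 to 8.26). In control 2 these clusters stood at 0.279 (0.00705 to 1.55) and 2.04 (0.421 to 5.96), with overlapping intervals. The share of barcodes with an Mcpt1 UMI was 0.420% of enterocyte-like and 0.303% of hemoglobin-dominated barcodes in control 2 (median 2212 and 5082 UMIs), and 0.777% and 0.613% in control 1 (median 2294 and 5788 UMIs). At 2000 UMIs per barcode it was 0.471% of 1062 enterocyte-like and 0% of 513 hemoglobin-dominated barcodes in control 2. In control 1 it was 0.429% of 1630 and 0% of 358. These counts are small, and whether Mcpt1 in enterocyte-like barcodes is background was not tested. Barcodes that failed the gene or mitochondrial limit without being dominated by hemoglobin held Mcpt1 at 2.27 CPM in control 2 (1.09 to 4.17) and 2.07 in control 1 (1.10 to 3.53). Goblet-like barcodes held 0 UMIs of all 5 members in both libraries.

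**Figure D5:**
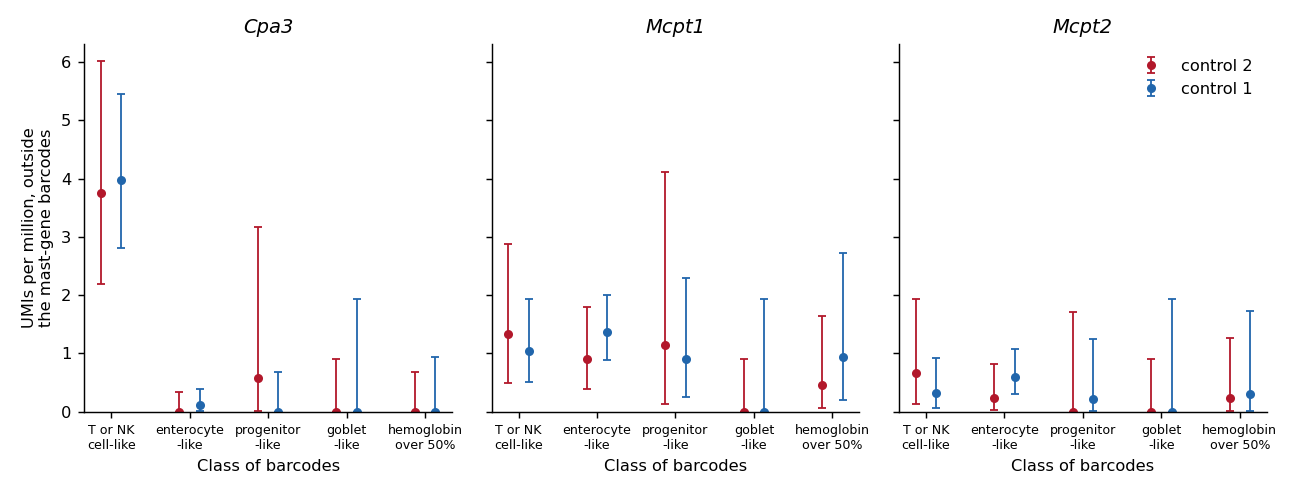
Level in CPM (UMIs scaled by all UMIs of the class) of Cpa3, Mcpt1 and Mcpt2 outside the mast-gene barcodes, by class of barcode, with control 2 (red) left of control 1 (blue); bars are exact Poisson 95% intervals, and for 0 UMIs they end at 3 counts. Cpa3 stands at 3.75 and 3.98 in T or NK cell-like barcodes and at or near 0 in enterocyte-like ones, while the Mcpt1 intervals of the classes drawn overlap within each library.

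The barcodes with exactly 2 members lay just outside the limit for a mast-gene barcode. In control 2 it was a shallow barcode of 703 UMIs, 55.8% of them mitochondrial, with 4 UMIs of Mcpt1 and 1 of Cpa3. In control 1 the first held 6 UMIs of Fcer1a and 1 of Cpa3 among 3951 UMIs, together with 15 of Hdc, 3 of Gata2, 12 of Fcer1g, 9 of Cyp11a1 and 3 of Cd200r3, a surface receptor gene of basophils, and 0 of either chymase. This barcode thus held an IgE receptor chain and the histamine enzyme without the mucosal chymases, and it accounts for the Fcer1a UMIs of control 1 outside the mast-gene barcodes but for 1. The second of control 1 held 5 UMIs of Cpa3 and 1 of Mcpt2 among 1077 UMIs, 39.4% of them mitochondrial, and the last held 3 of Mcpt2 and 2 of Cpa3 among 3485 UMIs, with 25 of Gzma and 15 of Ptprc, the pan-leukocyte gene. The barcodes just inside the limit carried all 5 members.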

How the data were processed

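The 2 control libraries were deposited as matrices of UMI counts (whole numbers, 1 column per barcode); per the file headers, Cell Ranger 7.1.0 wrote them. The submitters' processing notes also name Cell Ranger 6.1, with GRCm38 and mm10 as builds; the rule by which barcodes were kept, the annotation release and the counting of introns are not given in the sources used here. Neither library holds a barcode under 500 UMIs.

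The members and gene lists were chosen with earlier results of these data known. UMIs were summed over all deposited barcodes and divided by the library total. Intervals are exact Poisson (sums) or Clopper-Pearson binomial (shares and ratios) at 95%, with 3 counts as the limit on 0. For classes, barcodes with at least 500 genes and under 25% mitochondrial UMIs were clustered with scanpy 1.11.5 (2000 variable genes, 40 principal components, 15 neighbours, Leiden resolution 1) without the members, the mast cell lists, mitochondrial and ribosomal protein genes; 7 of 27 clusters stayed unnamed. A name needed a mean marker score of at least 0.5 and a marker among the 30 leading genes, a rule set after the data were seen. Multiplets were not removed. Named genes are the members, listed genes with a UMI in a mast-gene barcode, and the 15 genes with the highest share of UMIs there; listed genes at 0 and genes of barcodes just outside the limit were named after their values were seen. Cells are not replicates, and no test was run; nothing in the labels says that the libraries came from separate animals. The alternatives used other barcode filters, denominators, limits, thinning and clustering resolution. The granule protease Mcpt10 was not analysed here.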

Additional observations from a re-analysis of the deposited data

How the results depend on the processing

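Of 102 alternative values, 53 stayed close to the value reported, 44 moved and 5 changed direction. A library ratio counted as close within the interval of its main value. It counted as changed in direction only where a main ratio of at least 4 fell below 1. Ratios of Cpa3, Fcer1a and Ms4a2 that crossed 1 were therefore counted as moved or close. At the other clustering resolution only T or NK cell-like and enterocyte-like barcodes were compared, and their values stayed close. The ratio of control 2 over control 1 depended on single barcodes. For Mcpt1 it was 20.0 in kept barcodes, 1.09 without the highest barcode, 0.668 as barcodes carrying the gene and 0.824 outside the mast-gene barcodes, and for Mcpt2 0.641, 0.698 and 0.646 under the last 3 of these. For Cpa3 it was 0.964, 0.849 and 0.861. Outside the mast-gene barcodes it was 0.215 for Fcer1a and 0.754 for Ms4a2, and as barcodes carrying the gene 0.986 for Ms4a2. With at least 2 of 5 members the mast-gene barcodes numbered 8 and the Fcer1a share was 90.9%. Leaving out either library gave 2 barcodes, and the shares ranged from 54.6% to 97.7% (Mcpt1), 48.5% to 96.9% (Mcpt2), 27.3% to 66.0% (Cpa3), 30.0% to 91.7% (Fcer1a) and 75.0% to 93.3% (Ms4a2). Any member was carried by 0.0985% of barcodes in control 2 and 0.171% in control 1 at 2 or more UMIs, 0.0703% and 0.0749% at 3 or more, and 0.687% and 0.763% after thinning. The cause was not tested. A ratio between libraries could not be formed with either left out. No paired analysis was possible because the comparison is between 2 libraries of 1 group, 1 of each title. Depth limits the IgE receptor chains, at 22 and 23 UMIs in all for Fcer1a and Ms4a2.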
